A study of Mus musculus with 10 samples.

Results

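The 10 transcription factor genes described here, Sox9, Sox2, Nfia, Nfib, Nfix, Hes1, Hes5, Lhx2, Emx2 and Tcf7l2, encode DNA-binding proteins that are read in astrocytes and in the neural progenitors they come from. Each gene was taken from a probe set that the array annotation pairs with that gene symbol alone, and the brightest probe set was used where a gene had several. All 10 genes were on the array and all 10 passed the filter on dim signal, out of 17712 genes tested. Expression was measured on 10 Affymetrix arrays, 5 labelled FMR1-KO and 5 labelled Control, the second with the wild-type genotype. The cells came from the cortex of mice 8 weeks old and were sorted by flow cytometry on EGFP, a green reporter expressed in astrocytes, and this reporter was common to both groups. The promoter that drives EGFP, the part of Fmr1 that was disrupted, and whether an array holds 1 animal or a pool were not found in the labels. The titles call the replicates biological, and each p-value speaks only of the variation among these 10 arrays.

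SOX9 and the nuclear factor I proteins NFIA and NFIB switch neural progenitors of the embryo from making neurons to making glia, and they stay on in mature astrocytes. Notch signalling acts through the DNA-binding protein RBPJ on HES1 and HES5, which repress neuronal genes and keep progenitors and glia in their state. LHX2 and EMX2 pattern the embryonic cortex and hippocampus, and TCF7L2 is a nuclear partner of beta-catenin in Wnt signalling.

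Before the levels are given, 2 stretches of promoter sequence show where the DNA motifs of these pathways lie beside 2 of the genes. The stretches were chosen because Nfia had the smallest p of the 10 genes and Hes5 the widest range over the arrays. RefSeq promoter sequences, in build GRCm38.p6, were matched for 7 of the 10 genes. None was found for Sox9, Nfib and Hes1, so their promoters were not read. The matched sequences gave 12 start sites, each read over the 250 bases before the start. Capitals mark matches, on either strand, to TGGGAA (the RBPJ motif), ACAATG or ACAAAG (SOX motifs), CTTTGA (the TCF and LEF motif) or TAATTA (a homeodomain motif).
Nfia, chr4:97581693-97581942, plus strand: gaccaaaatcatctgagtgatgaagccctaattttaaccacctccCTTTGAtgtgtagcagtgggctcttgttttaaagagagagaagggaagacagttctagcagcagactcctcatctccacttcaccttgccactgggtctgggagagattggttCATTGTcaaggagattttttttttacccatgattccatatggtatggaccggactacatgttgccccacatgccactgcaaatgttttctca
Hes5, chr4:154960673-154960922, plus strand: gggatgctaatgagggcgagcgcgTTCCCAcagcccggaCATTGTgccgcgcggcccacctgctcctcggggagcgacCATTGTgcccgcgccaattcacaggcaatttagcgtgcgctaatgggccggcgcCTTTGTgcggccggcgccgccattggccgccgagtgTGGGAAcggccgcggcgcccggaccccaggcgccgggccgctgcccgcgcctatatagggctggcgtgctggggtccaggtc

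The Nfia stretch holds 1 TCF and LEF match, which begins 205 bases before the start site, and 1 SOX match of the ACAATG form, which begins 92 bases before it. The Hes5 stretch holds RBPJ matches that begin 226 and 82 bases before its start site and 3 SOX matches. Of all 32851 promoter stretches of this length in the table, 21.6% hold TGGGAA, 10.7% hold ACAATG, 16.5% hold ACAAAG, 13.8% hold CTTTGA and 4.84% hold TAATTA. Among the 12 stretches of the 7 genes with a promoter sequence, TGGGAA occurred in 4, in those of Hes5, Lhx2 and Emx2. ACAATG also occurred in 4, as did ACAAAG, while CTTTGA occurred in 1 and TAATTA in 1. The SOX form ACAAAG and the reverse strand of the TCF and LEF motif share the letters CAAAG. A match describes the sequence and is no evidence of binding.

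Levels are log2 signal as deposited, so a difference of 1 is a doubling, and levels of different probe sets were not set against each other. The labelled gene was read first. Fmr1 gave 8.32, 8.38, 8.26, 8.15 and 8.01 on the arrays labelled FMR1-KO and 8.28, 7.60, 8.03, 8.17 and 8.10 on the Control arrays. Its signal was thus not lower under the FMR1-KO label, with a difference of 0.19 ± 0.13 (SE) and a limma adjusted p of 0.704. The difference was 0.076 without Control 2 and 0.037 without Control 2 and 3. The group is therefore called by its label, and each direction below is the direction between labels.

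Microglia markers were read beside astrocyte markers on every array. All 16 astrocyte markers on the array and all 16 microglia markers passed the filter on dim signal. The mean microglia marker level ran from 9.17 to 10.6 on the arrays labelled FMR1-KO and from 9.95 to 10.9 on Control arrays, and the mean astrocyte marker level from 9.73 to 10.7 on FMR1-KO and from 9.58 to 10.3 on Control arrays. Arrays FMR1-KO 1, FMR1-KO 2 and Control 1 stood apart with the lowest microglia means (9.75, 9.17 and 9.95) and the highest astrocyte means (10.6, 10.7 and 10.3). In bulk samples, fewer cells of a type and less RNA per cell cannot be told apart. Xist, the RNA of the inactive X chromosome, was at 10.6 on Control 2 and 11.0 on Control 3, whereas the remaining 8 arrays lay at 4.98 to 5.23. The Y chromosome genes Uty and Kdm5d read 4.82 and 4.86 on Control 2 and 4.77 and 4.83 on Control 3. On the remaining 8 arrays Uty ran from 7.64 to 8.30 and Kdm5d from 7.05 to 7.76. Control 2 and 3 thus read as female and the other arrays, with all FMR1-KO arrays among them, as male. Sex and label are therefore partly confounded. Results are therefore also given without Control 2 and 3. Endothelial, oligodendrocyte, oligodendrocyte precursor and neuronal marker lists had array means between 5.70 and 6.81, where the cutoff for dim signal was 5.32. The choroid plexus and ependyma list, which holds Ttr, ran from 7.81 to 8.58 on the arrays labelled FMR1-KO and from 8.05 to 8.84 on Control arrays. Some of these lists also differed in mean between the labels. Of the endothelial markers, 9 of 10 were lower in FMR1-KO, with a median of -0.25, and Flt1 (-0.45), Cldn5 (-0.41) and Kdr (-0.30) had an unadjusted p under 0.05. Of the choroid plexus and ependyma markers, 8 of 9 were lower, with a median of -0.27, and 0 of either list passed the limma test. The pericyte and smooth muscle list had array means of 7.33 to 7.69 in FMR1-KO and 7.07 to 7.63 in Control. Of its 8 markers, 6 were higher and 2 lower, and Pdgfrb (0.58) had an unadjusted p under 0.05. Of 10 neuronal markers, 4 were higher and 6 lower, and Stmn2 (-0.29) and Gad1 (-0.24) had an unadjusted p under 0.05. In these 2 lists also 0 passed. The part of these cells in the differences below was not tested.

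All 10 transcription factors had a higher mean on the arrays labelled FMR1-KO, where 46.8% of all genes did, and none passed the test of limma with Benjamini-Hochberg adjustment over all genes. The share of all genes past that threshold was 0%. The median difference of the 10 genes was 0.36 on the log2 scale, against -0.01 over all genes tested, and 6 of the 10 differed by 0.3 or more, as 5.8% of all genes did. Nfia, Sox9 and Nfib, 3 of the 10, were higher with an unadjusted p under 0.05, a threshold met by 7.53% of all genes in either direction and by 4% as higher. The ranges of the 2 groups overlapped for each of the 10 genes, while 0.429% of all genes had every FMR1-KO array above every Control array.

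**Figure D1:**
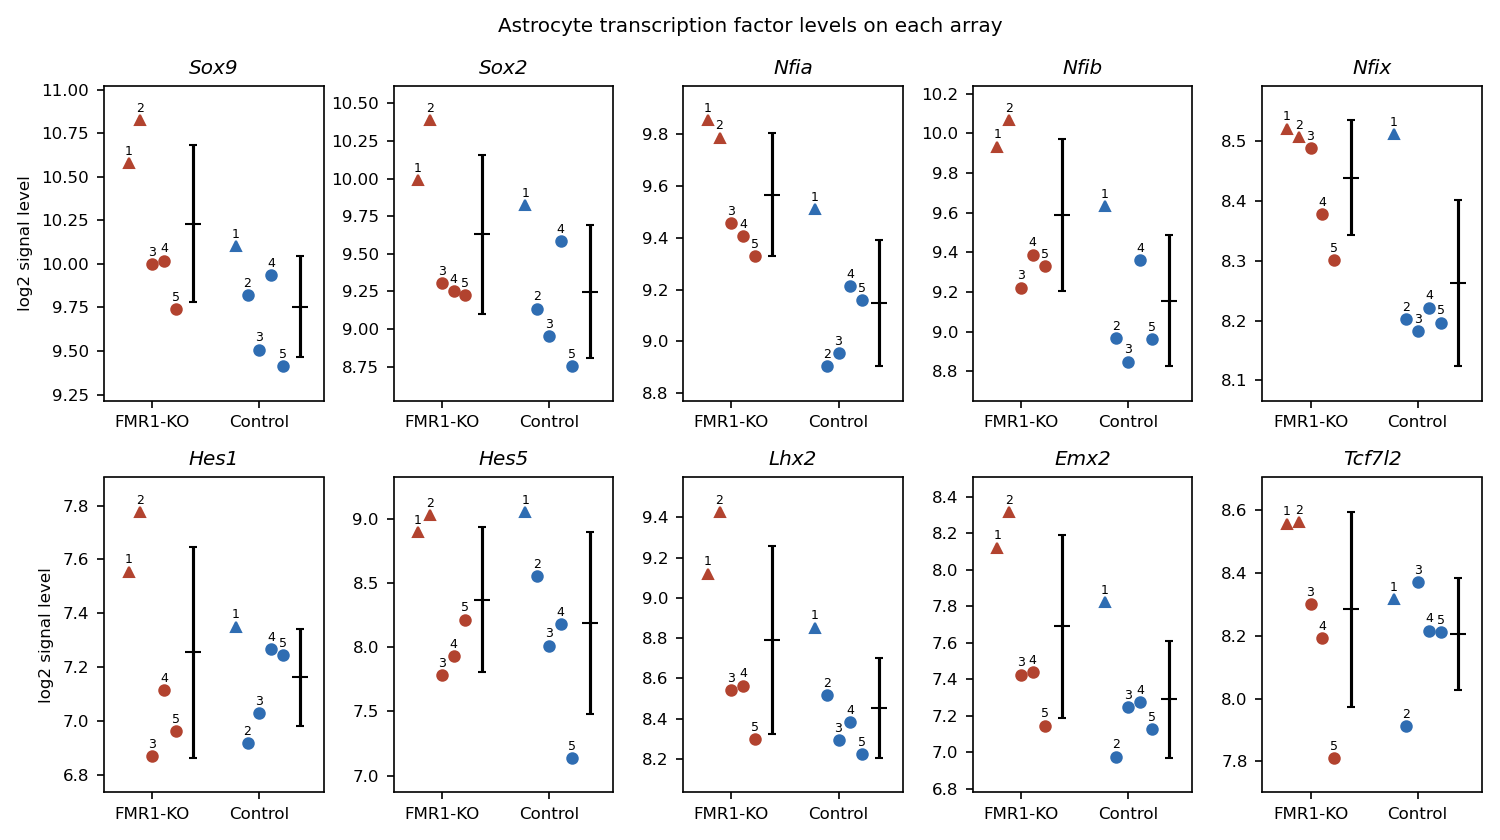
Log2 signal level (vertical axis, a separate scale for each gene) of the 10 transcription factors on each array, with the arrays labelled FMR1-KO in red on the left and the Control arrays in blue on the right of each panel. Numbers give the replicate, triangles mark FMR1-KO 1, FMR1-KO 2 and Control 1, and bars show the group mean ± SD (n = 5); the triangles hold the 3 highest levels in 9 of the 10 panels.

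Among the SOX factors, Sox9 encodes a regulator of glial fate that is used as a nuclear marker of adult astrocytes. It read 10.58, 10.82, 10.00, 10.02 and 9.74 on FMR1-KO arrays 1 to 5 and 10.10, 9.82, 9.51, 9.93 and 9.41 on Control arrays 1 to 5. FMR1-KO 1 and 2 were above every Control array and the other FMR1-KO arrays lay within the Control range. The difference of 0.48 ± 0.21 (SE), or 1.39-fold with a 95% interval of 1.02 to 1.90, was the largest of the 10 and did not pass the test (limma adjusted p = 0.654).

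Sox2, whose protein maintains neural stem cells and persists in astrocytes, read 9.99, 10.39, 9.30, 9.25 and 9.22 on the arrays labelled FMR1-KO and 9.82, 9.14, 8.95, 9.58 and 8.75 on Control arrays. FMR1-KO 1 and 2 and Control 1 held the highest levels, and Control 4 was above the remaining 3 FMR1-KO arrays. The difference was 0.38 ± 0.26 (SE; limma adjusted p = 0.704), and 0.19 without FMR1-KO 2. Sox2 thus had the second largest SE of the 10 genes, after Hes5.

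The nuclear factor I genes encode DNA-binding proteins that act in pairs, as homodimers and heterodimers. Nfia read 9.85, 9.79, 9.46, 9.41 and 9.33 on the arrays labelled FMR1-KO and 9.51, 8.90, 8.95, 9.21 and 9.16 on Control arrays. Only Control 1 of the Control arrays reached the FMR1-KO range, and all 5 FMR1-KO arrays were above the Control mean. The difference of 0.42 ± 0.14 (SE), or 1.34-fold with a 95% interval of 1.08 to 1.65, had the smallest unadjusted p of the 10 genes (0.0109), which became 0.654 after limma's adjustment over all genes.

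Nfib, which works with Nfia in the switch to glia, read 9.93, 10.07, 9.22, 9.39 and 9.33 on the arrays labelled FMR1-KO and 9.63, 8.97, 8.85, 9.36 and 8.96 on Control arrays. FMR1-KO 1 and 2 were above all Control arrays, and FMR1-KO 3 to 5 lay between Control 1 and the lowest Control arrays. Its difference was 0.43 ± 0.20 (SE; limma adjusted p = 0.654).

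Nfix, known in mouse for its part in the quiescence of neural stem cells, read 8.52, 8.51, 8.49, 8.38 and 8.30 on the arrays labelled FMR1-KO and 8.51, 8.20, 8.18, 8.22 and 8.20 on Control arrays. Control 1 stood with the FMR1-KO arrays and the other 4 Control arrays were below all 5 of them. Nfix spanned the narrowest range of the 10 genes, 0.34 over all arrays, and its difference was 0.18 ± 0.09 (SE; limma adjusted p = 0.659). A second Nfix probe set, dimmer at 6.81 ± 0.15 and 6.72 ± 0.09 (SD, n = 5 each) in FMR1-KO and Control, differed by 0.08.

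The Notch effectors Hes1 and Hes5 each had a difference smaller than its SE. Hes1 read 7.56, 7.78, 6.87, 7.12 and 6.96 on the arrays labelled FMR1-KO and 7.35, 6.92, 7.03, 7.27 and 7.24 on Control arrays. FMR1-KO arrays held both the 2 highest levels and the lowest level of this gene. Its difference of 0.09 ± 0.17 (SE), with a 95% interval of -0.28 to 0.46, did not pass the test (limma adjusted p = 0.910).

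Hes5, whose promoter is shown above with its RBPJ matches, read 8.90, 9.03, 7.78, 7.93 and 8.21 on the arrays labelled FMR1-KO and 9.06, 8.55, 8.01, 8.18 and 7.14 on Control arrays. Both the highest and the lowest level were on Control arrays, 1 and 5, and the range of 1.92 over all arrays was the widest of the 10 genes. The difference was 0.18 ± 0.34 (SE; limma adjusted p = 0.911), with an interval of -0.55 to 0.92, and it was -0.08 without Control 5. The second Hes5 probe set read 6.09 ± 0.18 and 6.04 ± 0.22 (SD, n = 5 each) in FMR1-KO and Control and spanned 5.88 to 6.43 over all arrays.

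The homeodomain genes followed the same arrays. Lhx2, a LIM-homeodomain factor that selects cortical identity in the embryo, read 9.12, 9.43, 8.54, 8.56 and 8.30 on the arrays labelled FMR1-KO and 8.85, 8.51, 8.29, 8.38 and 8.22 on Control arrays. FMR1-KO 1 and 2 were above every Control array, and Control 1 was above the remaining 3 FMR1-KO arrays. The difference was 0.34 ± 0.20 (SE; limma adjusted p = 0.684), and 0.18 without FMR1-KO 2.

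Emx2, which patterns the caudal cortex and hippocampus, read 8.12, 8.32, 7.42, 7.44 and 7.15 on the arrays labelled FMR1-KO and 7.82, 6.98, 7.25, 7.28 and 7.13 on Control arrays, with the same order of the top 3 arrays as Lhx2. Its difference was 0.40 ± 0.23 (SE; limma adjusted p = 0.676), and 0.24 without FMR1-KO 2. Emx2os, transcribed from the opposite strand of the Emx2 locus, read 8.33, 8.63, 7.56, 7.37 and 7.54 on the arrays labelled FMR1-KO and 8.15, 6.86, 7.49, 7.45 and 6.84 on Control arrays. It differed by 0.53 ± 0.29 (SE; limma adjusted p = 0.672), and FMR1-KO 1, FMR1-KO 2 and Control 1 were again its 3 highest arrays. Whether the probes separate the strands was not found in the labels.

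Tcf7l2, which oligodendrocyte lineage cells and thalamic neurons also express, read 8.56, 8.56, 8.30, 8.19 and 7.81 on the arrays labelled FMR1-KO and 8.32, 7.91, 8.37, 8.22 and 8.21 on Control arrays. The top 2 and the lowest level were on FMR1-KO arrays, and Control 3 was above Control 1, unlike for the other 9 genes. Its difference of 0.08 ± 0.14 (SE), with an interval of -0.24 to 0.39, was the smallest of the 10 (limma adjusted p = 0.911). It was 0.0055 without Control 2, 0.011 without FMR1-KO 1, 0.0093 without FMR1-KO 2, 0.12 without Control 3 and 0.20 without FMR1-KO 5. Of the 6 oligodendrocyte markers tested, 2 were higher and 4 lower in FMR1-KO, from -0.05 for Sox10 to 0.03 for Cnp, and the list's array mean ran from 6.01 to 6.21 in FMR1-KO and from 5.99 to 6.22 in Control. Of the 5 precursor markers tested, 3 were higher and 2 lower, with a median of 0.04. Among these, Olig2 averaged 7.99 in FMR1-KO and 7.53 in Control, a difference of 0.46 ± 0.23 (SE; limma adjusted p = 0.657), and Olig1 differed by 0.19 ± 0.26. The part of these cells in the Tcf7l2 level was not tested.

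**Figure D2:**
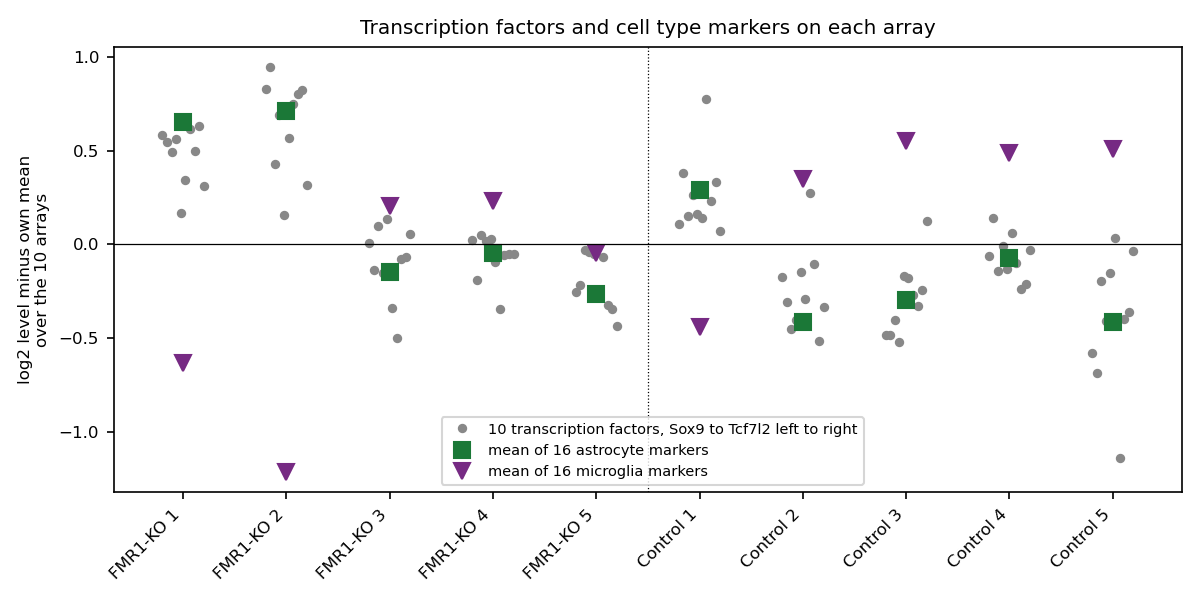
Log2 level minus the gene's own mean over the 10 arrays (vertical axis) for each array (horizontal axis), the arrays labelled FMR1-KO left of the dotted line and the Control arrays right of it. Grey points are the 10 transcription factors, green squares the mean of 16 astrocyte markers and purple triangles the mean of 16 microglia markers; on FMR1-KO 1, FMR1-KO 2 and Control 1 the astrocyte mean is above 0, the microglia mean is below 0 and every grey point lies above 0.

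The 3 arrays that stood apart in their marker levels were also high for these genes. FMR1-KO 1 and 2 were among the 3 highest arrays for all 10 genes and Control 1 for 9, and 10% of all genes had exactly these 3 arrays on top. FMR1-KO 2 was the highest array for 7 genes, FMR1-KO 1 for 2 and Control 1 for 1. Control 5 was the lowest array for 4 genes. The mean of these 3 arrays exceeded that of the other 7 by a median of 0.72 over the 10 genes, from 0.23 for Nfix to 1.02 for Hes5, which is larger than the median difference of 0.36 between the labels. Within the Control group alone, Control 1 was above the mean of the other Control arrays by a median of 0.48, and by 1.08 for Hes5. The part of the cell mixture in these differences was not tested.

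The labels were also compared within the arrays that stood apart and within the rest. Between FMR1-KO 1 and 2 and the single Control 1, 9 of the 10 genes were higher in FMR1-KO, with a median difference of 0.34 that has no replicate check on the Control side. The share of all genes higher in that comparison was not counted. Astrocyte marker means were 10.6 and 10.7 on FMR1-KO 1 and 2 and 10.3 on Control 1. Microglia marker means were 9.75 and 9.17 on FMR1-KO 1 and 2 and 9.95 on Control 1. The part of these marker gaps in the median of 0.34 was not tested. Between FMR1-KO 3 to 5 and Control 2 to 5, 8 of 10 had a higher mean, where 44% of all genes did, and the median difference was 0.17. Hes1 at -0.13 and Tcf7l2 at -0.08 were the 2 lower ones and Hes5 differed by 0.0049. None passed the limma test in these 7 arrays, where the smallest adjusted p of the 10 was 0.370, for Nfia.

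In these 7 arrays 2 of the nuclear factor I genes separated the labels. Nfia lay between 9.33 and 9.46 on FMR1-KO 3 to 5 and between 8.90 and 9.21 on Control 2 to 5, a difference of 0.34 ± 0.11 (SE). Nfix lay between 8.30 and 8.49 on those FMR1-KO arrays and between 8.18 and 8.22 on those Control arrays, a difference of 0.19 ± 0.10 (SE; limma adjusted p = 0.645). Of all genes, 3.99% had the 3 FMR1-KO arrays above the 4 Control arrays, and the other 8 transcription factors did not. These Control arrays include Control 2 and 3, the arrays with Xist signal. Nfia read 8.90 and 8.95 on Control 2 and 3 and 9.21 and 9.16 on Control 4 and 5. Nfix read 8.20 and 8.18 on Control 2 and 3 and 8.22 and 8.20 on Control 4 and 5. The part of sex in these differences was not tested. The mean microglia marker level did not overlap in these arrays either, with 10.3 to 10.6 on FMR1-KO 3 to 5 and 10.7 to 10.9 on Control 2 to 5, while the astrocyte means of 9.73 to 9.95 in FMR1-KO and 9.58 to 9.92 in Control overlapped. The share of that microglia gap in the Nfia and Nfix differences was not tested.

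**Figure D3:**
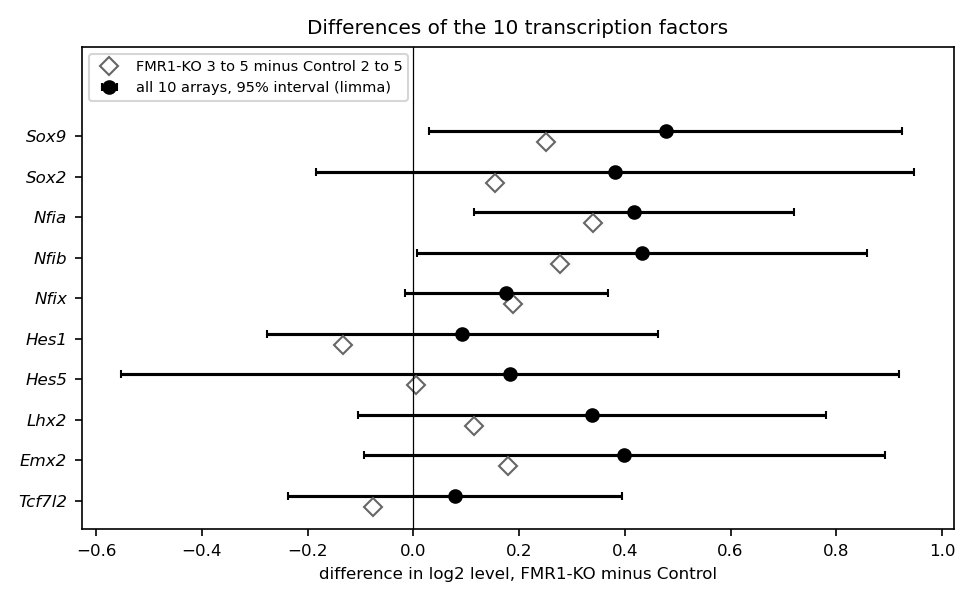
Difference in log2 level, FMR1-KO minus Control (horizontal axis), for the 10 transcription factors. Black points with bars are the limma estimate and its 95% interval over all 10 arrays, and open diamonds are the difference of means without FMR1-KO 1, FMR1-KO 2 and Control 1; the diamonds of Hes1 and Tcf7l2 lie below 0 and that of Nfia at 0.34.

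With the mean microglia marker level as a covariate, the median difference of the 10 genes was -0.03, with 4 higher and 6 lower. Sox9 then differed by 0.12 ± 0.14 (SE) and Nfia by 0.21 ± 0.12. With the mean astrocyte marker level as a covariate, a choice made after the data were seen, the median was 0.02, with 6 higher and 4 lower, and Nfia differed by 0.21 ± 0.09 (limma adjusted p = 0.781). Without Control 2 and 3, 9 of the 10 were higher, with a median of 0.26, against -0.0012 over all genes tested. The share of all genes with a higher mean without those arrays was not counted. Of the 10, 0 then had a limma unadjusted p under 0.05. Over all genes tested, 288 were higher and 430 lower at that threshold. A single array moved the median most when FMR1-KO 2 was left out, to 0.19. The count of 3 genes at an unadjusted p under 0.05 was 1 without Control 2, 3 or 5 or FMR1-KO 1 or 2, 5 without Control 1 and 6 without FMR1-KO 5. The counts over all genes moved too. With all arrays 709 genes were higher and 625 lower at that threshold. Without Control 1 these were 1170 and 1255, and without FMR1-KO 5 they were 1130 and 500. In the 5 settings with a count of 1, they were 343 to 493 higher and 442 to 542 lower.

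The 10 genes differed in how closely they followed one another. Closeness was measured as the root mean square difference of centred log2 levels over the 10 arrays. The closest pair was Sox9 and Lhx2 at 0.12, then Sox9 and Nfib at 0.14. Lhx2 and Emx2 also stood at 0.14. Hes5 stood furthest from the rest, at 0.55 from Tcf7l2 and 0.49 from Hes1, its partner in the Notch pathway. The measure is not scaled to a gene's own spread, and Hes5 had the largest root mean square deviation of the 10, at 0.58. Its distances therefore partly reflect that spread.

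By the same measure over all genes tested, the nearest gene to Sox9 was Slc38a3, a glutamine transporter of astrocytes, at 0.08, followed by Nnat and Arhgef17. Slc38a3 was also second for Sox2 at 0.10, after Fermt2 and before Arap2. Nearest to Nfia were Ptar1 at 0.05, Gramd1b and Mok. For Nfib they were Nckap1 at 0.07, Sned1 and Rgs20. For Nfix they were Reep2 at 0.06, Pigg and Ajm1, and Nfix itself had a root mean square deviation of 0.14. Lhx2 had Pcdh1 at 0.07, Lrrc4b and Hbegf nearest, and Emx2 had the growth factor receptor gene Fgfr1 at 0.08, Sdc2 and Efr3b. The nearest to Hes1 were Foxn2 at 0.09, Ppp2r5a and Fyn, and to Tcf7l2 Cdipt at 0.06, Ap1m1 and Pcmtd2. For Hes5 the nearest, 2900092D14Rik, Tagln3 and Fabp7, a fatty acid binding protein of radial glia, stood further off at 0.24 to 0.25. The root mean square deviation of Hes5 itself was 0.58. None of the 3 nearest genes of any of the 10 was itself among the 10.

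**Figure D4:**
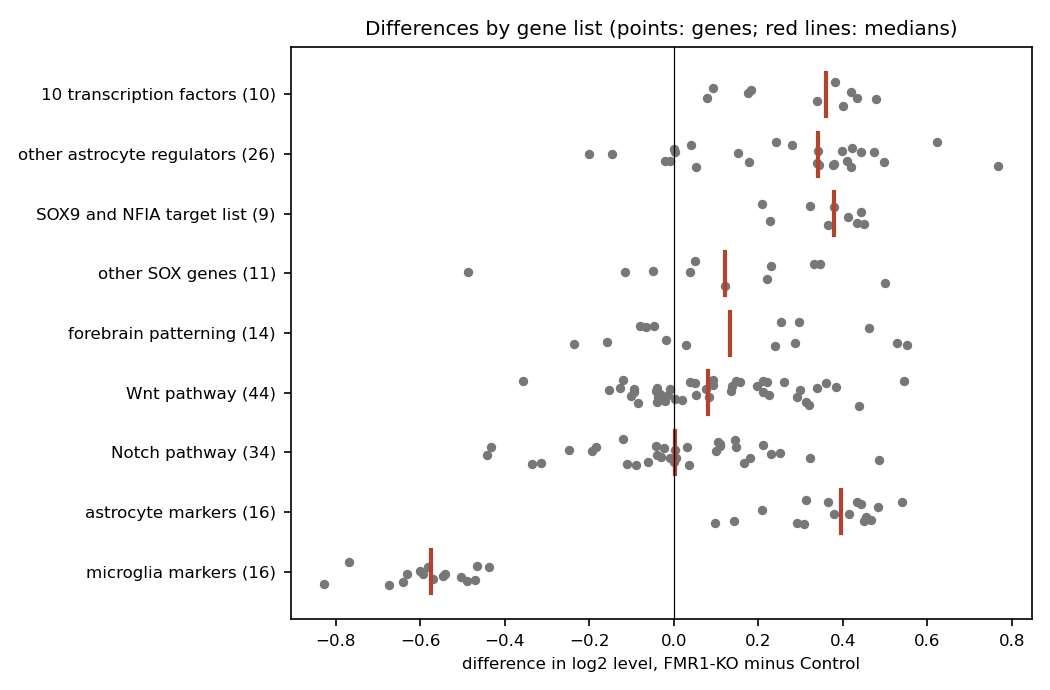
Difference in log2 level, FMR1-KO minus Control (horizontal axis), of each tested gene in 9 lists (rows, number tested in brackets). Points are genes, spread vertically for legibility, and red lines are list medians; the medians run from 0.40 for astrocyte markers to -0.58 for microglia markers, with the 10 transcription factors at 0.36.

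Other regulators read in astrocytes had a median like that of the 10 genes. Means were higher under the FMR1-KO label for 21 of the 26 tested and lower for 5, and the median difference was 0.34. An unadjusted p under 0.05 was found for 7, all higher, and 0 passed the limma test. The orphan nuclear receptor gene Rorb differed by 0.77 ± 0.30 (SE), Trps1 by 0.62 ± 0.23, the Hedgehog effector Gli2 by 0.42 ± 0.16 and Zeb1 by 0.40 ± 0.16. Rorb read 10.37 and 10.77 on FMR1-KO 1 and 2, 9.29 to 9.42 on FMR1-KO 3 to 5, 9.50 on Control 1 and 8.58 to 9.48 on the other Control arrays. Without FMR1-KO 1, FMR1-KO 2 and Control 1 this list had 14 higher and 12 lower, with a median of 0.08.

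Genes known as targets of SOX9 and NFIA, or induced with them, were 9 of 9 higher in mean, with a median of 0.38 and 0 past the limma test. Of the 9, 6 are also astrocyte markers. Apcdd1, Mmd2 and Zcchc24, the 3 that are not, are joint targets of SOX9 and NFIA in the embryonic spinal cord. Zcchc24 differed by 0.41 ± 0.17 (SE). Mmd2 and Apcdd1, which were named after their values were seen, differed by 0.32 ± 0.31 and 0.23 ± 0.15. The glutamate transporter gene Slc1a3 differed by 0.44 ± 0.20, the calcium-binding S100b by 0.43 ± 0.24 and Aldh1l1 by 0.38 ± 0.21. Without the 3 arrays that stood apart, 7 of the 9 were higher, with a median of 0.17. The astrocyte markers themselves were 16 of 16 higher with a median of 0.40, and 12 of 16 with a median of 0.16 without those arrays. The microglia markers were 16 of 16 lower, with a median of -0.58.

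Among relatives of the SOX genes, 8 of 11 were higher in FMR1-KO, the median difference was 0.12 and 0 passed the limma test, while without the 3 arrays 4 of 11 had a higher mean and 7 a lower one, with a median of -0.02. Sox6 differed by 0.50 ± 0.18 (SE), Sox5 by 0.35 ± 0.20 and Sox13 by 0.12 ± 0.09. Sox4 differed by -0.49 ± 0.21, reading 7.15, 6.62, 7.52, 7.27 and 7.41 on the arrays labelled FMR1-KO and 6.99, 7.62, 8.04, 7.98 and 7.77 on Control arrays. Sox4 was thus lowest on the 3 arrays where Sox9 was highest. Nfic, the fourth nuclear factor I gene, differed by -0.02 ± 0.11, against 0.18 to 0.43 for Nfix, Nfia and Nfib. A test of the gap between Nfic and the other 3 was not made.

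In the Notch pathway around Hes1 and Hes5, 18 of 34 tested genes were higher and 16 lower. The median difference was 0.0020, and -0.0035 after quantile normalization. Without the 3 arrays 14 were higher and 20 lower, with a median of -0.031, and with the microglia covariate 21 were higher and 13 lower, with a median of 0.048. Among receptors, Notch2 differed by 0.10 ± 0.13 (SE) and Notch3 by 0.15 ± 0.08. Rbpj, which encodes the DNA-binding partner of activated Notch, differed by -0.04 ± 0.12 and its coactivator gene Maml2 by 0.21 ± 0.09. The feedback target Nrarp differed by 0.48 ± 0.25, and Adam10, a protease that cleaves Notch at the cell surface, by -0.44 ± 0.17. Nrarp read 9.34 on FMR1-KO 2 and 7.71 to 8.52 on the other FMR1-KO arrays. Adam10 read 9.36 and 8.99 on FMR1-KO 1 and 2 and 9.38 on Control 1, and was higher on every other array. Maml2 (higher) and Adam10 (lower) were the only genes of the list with an unadjusted p under 0.05, and 0 passed the limma test.

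In the Wnt pathway around Tcf7l2, 28 of 44 tested genes were higher in FMR1-KO and 16 lower, the median difference was 0.08 and 0 passed the limma test. Ctnnb1, which encodes beta-catenin, differed by -0.36 ± 0.12 (SE), and Apc, part of the complex that degrades beta-catenin, by 0.31 ± 0.11. The receptor gene Lgr4 differed by 0.55 ± 0.24, and the relatives of Tcf7l2 by 0.34 ± 0.15 for Tcf7l1 and 0.21 ± 0.17 for Lef1. Without the 3 arrays 25 of the 44 were higher, with a median of 0.02.

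The forebrain patterning list, which holds relatives and partners of Lhx2 and Emx2, had 8 of 14 tested genes higher, with a median of 0.13 and 0 past the limma test. Pax6, a regulator of cortical progenitors, differed by 0.46 ± 0.17 (SE) and Nr2e1, which maintains neural stem cells, by 0.55 ± 0.25. Lhx9 differed by -0.23 ± 0.11 at levels near the dim cutoff, 5.45 in FMR1-KO and 5.68 in Control on average. Without the 3 arrays 7 were higher and 7 lower, with a median of 0.0075.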

How the data were processed

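Expression was read from 10 arrays of RNA amplified with an Affymetrix whole-transcript cDNA kit and labelled with biotin, per the labels' protocols. The authors deposited log2 signal levels per probe set and compared the groups in Genespring 13.1.1, per the series' design text; for background correction and normalization, no method is given in the sources used here. That the scale is log2 was read from the deposited values (4.31 to 13.9).

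Of 33793 probe sets, 23521 had 1 gene symbol, and the brightest probe set of each gene was kept. A gene was left out where its mean over the arrays was under 5.32, the 25th percentile over probe sets. The groups were compared with lmFit and eBayes in limma 3.58.1 under R 4.3.3. Tests were two-sided, p-values were adjusted over 17712 genes by the Benjamini-Hochberg method, and the threshold was 0.05. The procedure was tested on simulated data. The number of arrays limits the precision.

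The 10 genes, the lists and the alternatives were chosen with earlier results of these data known. Named genes are the 10, Fmr1, up to 4 genes per list with the smallest p, a few set relatives, and the 3 genes nearest in pattern. Listed genes not on the array were not analysed here.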

Additional observations from a re-analysis of the deposited data

Results flagged for a closer look

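Nfix on Control 1 stood far from the other Control arrays, at 8.51 against 8.18 to 8.22, a gap of 0.880 of the group's range. It was the 1 flag among 22 groups of 5 arrays looked at (the 10 transcription factors and Fmr1 in each label), where chance flags about 1 in 20 groups. The groups are not independent, because they share the same arrays. Control 1 was above every other Control array for 9 of the 10 genes. Control 1 was also the Control array with the lowest mean microglia marker level, 9.95 against 10.7 to 10.9, and the part of that in the Nfix level was not tested.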

How the results depend on the processing

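None of the 10 genes passed the limma threshold under any of the 22 alternatives, where their count at an unadjusted p under 0.05 ran from 0 to 6 and that of all genes from 718 to 2425, against 1334 with all arrays. All genes past the adjusted threshold numbered 0 with all arrays and 0 to 1 with each array left out, the 1 being Cnbd2 without Control 5, and 1, Tlcd1, without FMR1-KO 1, FMR1-KO 2 and Control 1; both were named after their values were seen. The median difference of the 10 genes was -0.026 with the microglia covariate and 0.016 with the astrocyte covariate, and 0.19 to 0.47 with each array left out. Signs turned for Sox2 (-0.093), Hes1 (-0.18), Hes5 (-0.40), Lhx2 (-0.041), Emx2 (-0.012) and Tcf7l2 (-0.066) with the microglia covariate, and for Sox2 (-0.043), Hes1 (-0.16), Hes5 (-0.28) and Tcf7l2 (-0.10) with the astrocyte covariate. Hes1 was -0.051 with array weights, -0.032 without Control 2 and 3 and -0.13 without the 3 arrays, where Tcf7l2 was -0.077. With each array left out Hes1 ran from -0.037 to 0.19 and Hes5 from -0.080 to 0.40; the cause was not tested. Sox9, Nfia, Nfib, Nfix and Fmr1 stayed higher in FMR1-KO in all 22. Deviations of same-numbered arrays correlated at 0.53, -0.015, 0.19, 0.0020 and 0.15, and 1 of 10 arrays correlated best with its own number. These deviations also hold the shift of the 3 arrays that stood apart, so they cannot decide whether the replicate numbers pair the arrays. With the replicate number as a block, 0 genes passed, 2080 had an unadjusted p under 0.05, and the smallest adjusted p of the 10 genes was 0.320. The block lowered the SE of Sox9 from 0.21 to 0.13 and that of Hes5 from 0.34 to 0.19, and raised that of Nfix from 0.088 to 0.092.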
